A study of Mus musculus with 95 samples.

Results

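The regions described here are PCGF6 binding sites of mouse embryonic stem cells at which no RING1B peak was called in wild-type cells. They were chosen from 3 peak lists: a wild-type PCGF6 peak was kept when it overlapped no wild-type RING1B peak and no PCGF6 peak of the Pcgf6-/- line by even 1 bp. Of 1868 wild-type PCGF6 peaks, 565 met the rule. A further 824 overlapped a RING1B peak and were absent from the Pcgf6-/- list, and 479 were still called in Pcgf6-/- cells. The absence of RING1B in wild-type cells and of PCGF6 in Pcgf6-/- cells is therefore fixed by the selection and is not a result.

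PCGF6 is the Pcgf subunit of a non-canonical Polycomb repressive complex 1, often called PRC1.6. In this complex the E3 ligases RING1A and RING1B, which place the H2AK119ub1 mark on histone H2A, sit beside sequence-specific factors: MGA with its partner MAX, which reads E-box and T-box sequences, and E2F6 with a TFDP partner, which reads E2F sites. L3MBTL2, WDR5, CBX3 and the deacetylases HDAC1 and HDAC2 are further partners, and in embryonic stem cells the complex is known for keeping germline genes silent. USF1, which is not among these subunits, is a basic helix-loop-helix leucine zipper factor that also reads the E-box. H3K4me3 marks active or poised promoters.

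All samples were E14 embryonic stem cells or derivatives, grown on gelatin with serum, LIF and inhibitors of GSK3β and MEK1/2. The groups were wild-type cells, Cas9-edited clones named by genotype as Pcgf1-/-, Pcgf2/4-/-, Pcgf3/5-/-, Pcgf6-/-, Pcgf1/2/4-/- and Pcgf3/5/6-/-, a conditional line before (Ring1a-/-_Ring1bfl) and after (Ring1a/b-/-) deletion of Ring1b, and cells selected for lentiviral hairpins named shCtr, shMGA, shMGAdHLH, shE2F6 and shE2F6-MGAdHLH. Ring1a was already deleted in the conditional line before loss of Ring1b. Multiple knockouts were made by editing single-knockout clones, so lines share clonal history. The headers of the deposited tables name different Pcgf6-/- clones, and whether ChIP-seq and RNA-seq used 1 clone is not stated. Each peak list came from 1 library, except RING1B in Pcgf1/2/4-/- cells with 2; shares of peaks are given with 95% Wilson intervals that cover counting error only, and no test between lists was possible. RNA-seq comprised 7 genotypes with 2 libraries each.

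The sites lay mostly at promoters. Of the 565, 392 had their summit within 2.5 kb of a start site of a counted gene, which is 69.4% (95% Wilson interval 65.5% to 73.0%), and 368 lay within 1 kb. The median distance from summit to start was 166 bp among the promoter sites. Of the 173 others, 100 lay outside annotated genes, 39 in introns and 34 in exons. With every annotated start site, counted or not, 432 of the 565 lay within 2.5 kb, 76.5% (72.8% to 79.8%). Sites called away from promoters here are away from start sites of counted genes, and some lie near other annotated starts. The sites were spread over 20 chromosomes, with 2 on X, one at Taf7l and one near Nhsl2.

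Stretches of the sites that the results below turn on are printed here, so that the sequence under each peak can be read beside its values. They come from the plus strand of mouse build NCBIM37 around the PCGF6 summit and leave out annotated exons. Capitals mark the E-box CACGTG, the T-box motif AGGTGT and the E2F site GCGGGAA on either strand. The first 5 sites serve germline genes whose RNA was higher in Pcgf6-/- cells.
Brdt (chr5:107760014-107760177): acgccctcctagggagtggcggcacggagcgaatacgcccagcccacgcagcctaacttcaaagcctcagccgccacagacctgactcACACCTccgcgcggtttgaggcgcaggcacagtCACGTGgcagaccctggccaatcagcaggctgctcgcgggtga
Sycp3 (chr10:87922188-87922313): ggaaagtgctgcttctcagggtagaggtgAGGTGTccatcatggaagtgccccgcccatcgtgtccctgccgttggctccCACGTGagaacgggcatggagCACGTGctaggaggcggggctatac
Boll (chr1:55420488-55420687): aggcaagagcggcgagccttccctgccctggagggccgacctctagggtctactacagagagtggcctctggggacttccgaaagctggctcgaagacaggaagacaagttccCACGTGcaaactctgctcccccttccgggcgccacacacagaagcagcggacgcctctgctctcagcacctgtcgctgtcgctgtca
Tdrd9 (chr12:113209576-113209769): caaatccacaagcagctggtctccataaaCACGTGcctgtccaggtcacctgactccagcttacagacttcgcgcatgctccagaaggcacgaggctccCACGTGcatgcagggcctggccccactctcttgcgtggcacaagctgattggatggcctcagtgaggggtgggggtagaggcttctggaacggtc
Taf7l (chrX:131009535-131009734): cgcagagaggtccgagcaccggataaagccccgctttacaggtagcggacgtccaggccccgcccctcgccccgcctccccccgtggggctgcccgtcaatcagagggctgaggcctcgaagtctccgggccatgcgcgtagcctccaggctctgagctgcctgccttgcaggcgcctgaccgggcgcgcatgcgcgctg
The next 4 serve genes whose RNA was lower, and include the promoter of the complex's own subunit gene Mga.
Mga (chr2:119723119-119723318): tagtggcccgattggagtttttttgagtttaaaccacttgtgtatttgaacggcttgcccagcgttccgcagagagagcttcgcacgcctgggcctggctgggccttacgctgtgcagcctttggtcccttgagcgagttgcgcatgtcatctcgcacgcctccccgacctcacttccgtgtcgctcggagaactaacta
Bach2 (chr4:32325210-32325409): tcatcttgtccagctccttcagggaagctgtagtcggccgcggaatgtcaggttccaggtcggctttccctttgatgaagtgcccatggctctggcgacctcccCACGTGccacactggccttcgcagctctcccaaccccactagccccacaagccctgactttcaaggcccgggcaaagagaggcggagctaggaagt
Ccdc9 (chr7:16871877-16872048): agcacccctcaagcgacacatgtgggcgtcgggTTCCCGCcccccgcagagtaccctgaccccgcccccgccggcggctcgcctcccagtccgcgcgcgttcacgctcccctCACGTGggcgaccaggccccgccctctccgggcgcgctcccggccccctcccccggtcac
Bod1l (chr5:42235569-42235768): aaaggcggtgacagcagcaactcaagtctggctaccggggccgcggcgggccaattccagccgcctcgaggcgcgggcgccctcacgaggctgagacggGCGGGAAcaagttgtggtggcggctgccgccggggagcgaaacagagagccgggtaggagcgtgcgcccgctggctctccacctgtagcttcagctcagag
The last pair shows a strongly bound promoter whose RNA did not pass the test in Pcgf6-/- cells and a strongly bound site far from the nearest start, that of Gm1631.
Trim28 (chr7:13608657-13608856): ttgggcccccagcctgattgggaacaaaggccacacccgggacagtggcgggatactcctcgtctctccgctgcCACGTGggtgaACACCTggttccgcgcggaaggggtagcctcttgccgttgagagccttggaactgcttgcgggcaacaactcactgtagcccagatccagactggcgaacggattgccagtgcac
Gm1631 (chr2:71494797-71494996): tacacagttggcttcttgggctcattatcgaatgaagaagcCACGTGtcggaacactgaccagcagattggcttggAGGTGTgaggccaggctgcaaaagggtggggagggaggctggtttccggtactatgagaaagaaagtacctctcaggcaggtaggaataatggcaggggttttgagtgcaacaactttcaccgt

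The E-box was the commonest of the 3 motifs. It was found in 225 of the 565 windows of 300 bases centred on the summit, or 39.8% (35.9% to 43.9%). The share was 27.2% (24.3% to 30.3%) at PCGF6 peaks with RING1B, 7.10% at peaks that persisted in Pcgf6-/- cells and 7.56% of 19551 windows of the same length at protein-coding start sites. The T-box motif was present in 17.5% of the windows (14.6% to 20.9%), against 12.03% at start sites, and the E2F site in 11.2% (8.81% to 14.01%), against 6.45%. At PCGF6 peaks with RING1B these shares were 13.7% and 14.7%, and at persisting peaks 19.00% and 5.22%. The median distance of an E-box from the summit was 52.0 bp. In the stretches above, Sycp3 and Tdrd9 each hold 2 E-boxes. Brdt, Trim28, Sycp3 and Gm1631 hold both an E-box and a T-box motif, and the stretches of Taf7l and Mga hold none of the 3 motifs. A match is a description of the letters only.

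By the fold enrichment that the authors' peak caller gave each peak, the sites ran from 3.16 to 15.1 with a median of 7.56, against a median of 8.59 at PCGF6 peaks with RING1B. These values were used only within a list. The strongest site, with 15.1, lay outside annotated genes 32240 bp from the start of Slc7a8, an amino acid transporter gene. Next came a site 71182 bp from Fgf9 with 14.1, and the Gm1631 site, 62577 bp from that gene's start, with 13.9. Of the 10 strongest sites, 4 were away from promoters, the last of them near Gpr44. The 6 promoters among them were those of Atxn7l3b, Trim52, Capn10, Brdt, Romo1 and Trim28, with fold enrichments from 13.8 down to 12.5. Trim28 encodes the corepressor that silences transposable elements with zinc finger proteins, and Brdt a bromodomain protein of male germ cells.

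The label "without RING1B" held for the wild-type list and nearly so for the lists labelled Pcgf6-/- and Pcgf3/5/6-/-, but not for the other lines. RING1B peaks were called at 180 of the 565 sites in Pcgf1-/- cells, at 169 in Pcgf3/5-/- cells and at 289 in Pcgf2/4-/- cells, which are 31.9% (28.2% to 35.8%), 29.9% (26.3% to 33.8%) and 51.2% (47.0% to 55.3%). In the 2 Pcgf1/2/4-/- libraries the shares were 47.6% and 45.7%, with 190 sites called in both. In all, 428 sites (75.8%) carried a RING1B peak in at least 1 of these lists, and 52 in every one.

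In the lines that lack Pcgf6 by label almost none did, although the RNA libraries labelled Pcgf3/5/6-/- held Pcgf6 counts at the wild-type level. RING1B was called at 5 sites (0.885%) in Pcgf6-/- cells, namely those nearest Syn2, Jakmip1, Foxd3, Jph1 and Hoxa4, and at 1 site (0.177%), at Klhl21, in cells labelled Pcgf3/5/6-/-. These names were taken after the values were seen. The list sizes were similar: 5454 RING1B peaks in wild-type cells, 5563 in Pcgf6-/-, 5696 in Pcgf1-/-, 5586 in Pcgf3/5-/- and 5607 in Pcgf2/4-/- cells. Only the Pcgf1/2/4-/- lists, with 2051 and 1814, and the Pcgf3/5/6-/- list, with 3068, were shorter. At 15402 promoter H3K4me3 peaks with neither PCGF6 nor RING1B in wild-type cells, the same RING1B lists covered 2.47% in Pcgf1-/-, 2.43% in Pcgf3/5-/-, 4.43% in Pcgf2/4-/-, 1.19% and 1.16% in Pcgf1/2/4-/-, 2.54% in Pcgf6-/- and 0.591% in Pcgf3/5/6-/-.

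**Figure D1:**
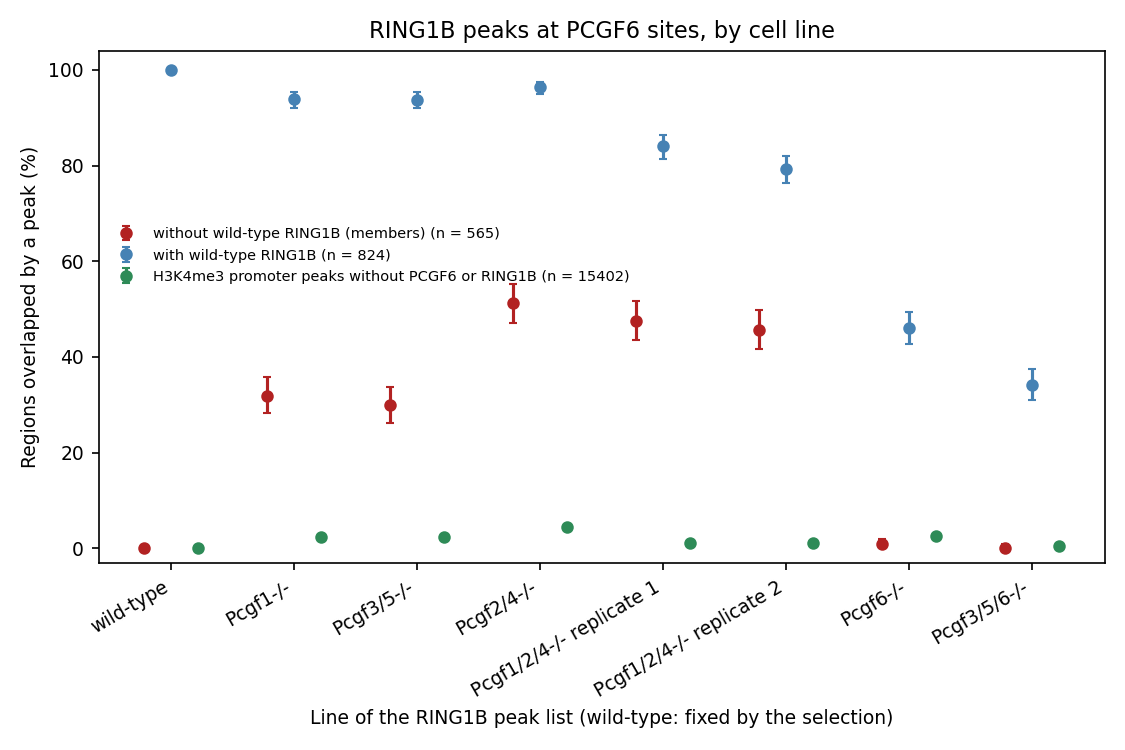
Share of regions (%, vertical axis) overlapped by a RING1B peak in each line (horizontal axis), with 95% Wilson intervals, for the 565 sites, the 824 PCGF6 peaks with wild-type RING1B and 15402 H3K4me3 promoter peaks with neither. The wild-type values are fixed by the selection; the 565 sites reach 51.2% in Pcgf2/4-/- and fall to 0.885% in Pcgf6-/-.

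Some sites lay close to the limit of the rule. The nearest wild-type RING1B peak lay 70 bp from the site at Cdca7l and 78 bp from that at Tiam1, both counted among the 565. The PCGF6 peaks at Cdc14b and Gm4559 overlapped a RING1B peak by 9 and 51 bp and were left out. The median gap was 128934 bp, and 19 sites had a RING1B peak within 1 kb.

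Other Polycomb marks were called at few sites. No H2AK119ub1 peak was called at any of the 565 sites in wild-type cells, which allows a share of up to 0.531%, and H2AK119ub1 was called at 7.77% of PCGF6 peaks with RING1B. H3K27me3, the mark of Polycomb repressive complex 2, overlapped 6 sites (1.06%), against 42.7% of the peaks with RING1B. SUZ12, a core subunit of that complex, overlapped 18 (3.19%), against 69.4%. At the 15402 H3K4me3 promoter peaks with neither PCGF6 nor RING1B the shares were 0.299% for H2AK119ub1, 2.57% for H3K27me3 and 4.12% for SUZ12. Of the other Pcgf proteins, wild-type PCGF2 overlapped 28 sites (4.96%), PCGF3 17 (3.01%) and PCGF1 none, from lists of 4472, 223 and 736 peaks. The shares in the same order were 53.9%, 3.16% and 12.4% at the peaks with RING1B. At the H3K4me3 promoter peaks with neither they were 3.27%, 0.675% and 0.162%.

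Most sites carried H3K4me3. A wild-type H3K4me3 peak overlapped 464 of the 565, or 82.1% (78.8% to 85.1%), against 92.8% (90.9% to 94.4%) of the PCGF6 peaks with RING1B. At promoters 370 of 392 carried it, and away from promoters 94 of 173, 54.3% (46.9% to 61.6%). The 101 sites without the mark had a lower median GC content, 52.7% against 62.3%, and an E-box in 52.5% (42.8% to 61.9%) of their windows, against 37.1% (32.8% to 41.6%).

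In Pcgf6-/- cells the number of sites with H3K4me3 rose from 464 to 522, or 92.4% (89.9% to 94.3%). Of the 101 sites with no wild-type peak, 63 had one in Pcgf6-/- cells, which is 62.4% (52.6% to 71.2%), while 15 had one in Pcgf1-/-, 15 in Pcgf3/5-/- and 19 in Pcgf2/4-/- cells. The Pcgf2/4-/- list was the longest of these, with 47619 peaks against 45285 in Pcgf6-/- and 40094 in wild-type cells. At PCGF6 peaks with RING1B the corresponding count was 52 of 59 in Pcgf6-/- cells. Among the 479 persisting peaks, those with H3K4me3 went from 168 in wild-type to 228 in Pcgf6-/- cells, and were 183, 172 and 200 in Pcgf1-/-, Pcgf3/5-/- and Pcgf2/4-/- cells. A wild-type peak had no counterpart in Pcgf6-/- cells at 5 of 464 sites, those nearest Ddx19b, Top1, Prdm1, Nudt4 and Zfp704.

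Of the 63 sites that acquired a peak, 46 were away from promoters of counted genes and 17 at such promoters. The promoters included those of Taf7l, Ptpn20, Cdh18, Trim50, Pga5, Mfap5, Tex101, Igsf8, Traf1, Lnx1, Acvrl1, Slc7a9, Cdc42bpg, Tdrd9, Ano8 and Tcam1. Within the Pcgf6-/- list the new peak at Taf7l had a fold enrichment of 25.9, that at Tex101 13.5 and that at Tdrd9 6.47. The strongest site of all, near Slc7a8, was among the 46, with 22.6, and the Gm1631 site had 12.3. In 37 of the 63 no H3K4me3 peak was called in any of the other 3 knockout lists.

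**Figure D2:**
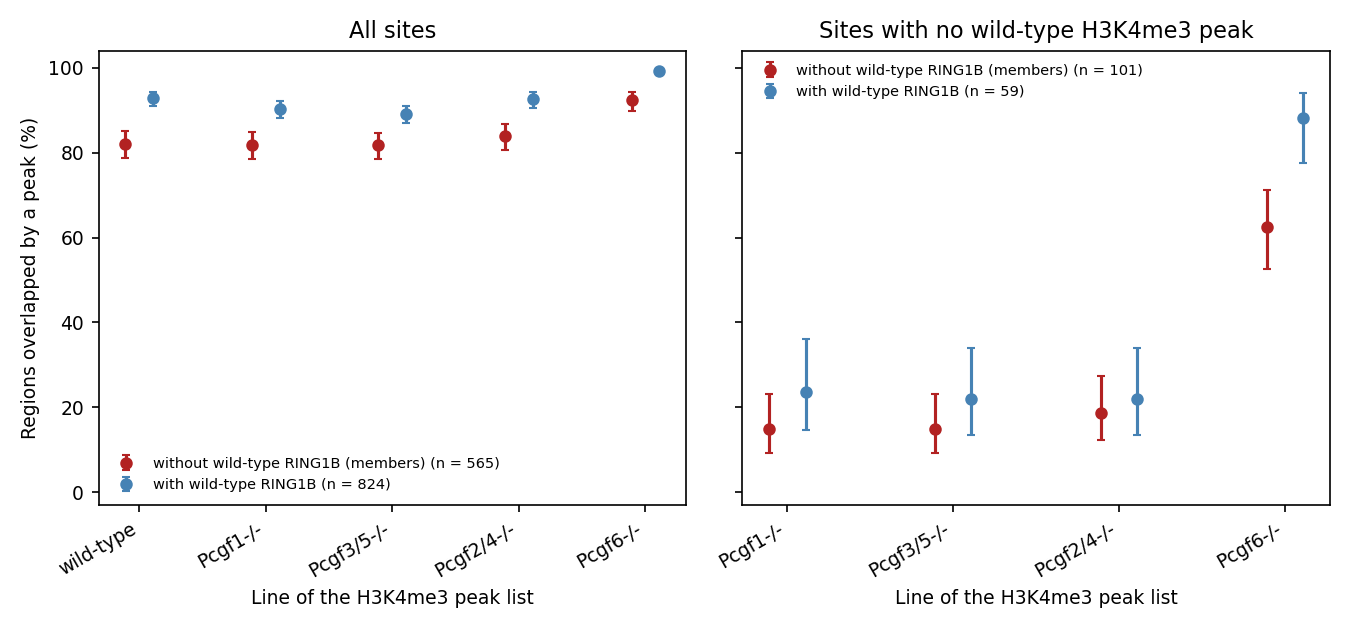
Share of regions (%, vertical axis) with an H3K4me3 peak by line, with 95% Wilson intervals, for all sites (left) and for those with no wild-type H3K4me3 peak (right). Of the 101 sites without a wild-type peak, 62.4% have one in Pcgf6-/- cells and 14.9% to 18.8% in the other lines.

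WDR5, a subunit shared by PRC1.6 and the H3K4 methyltransferase complexes, overlapped 209 sites, or 37.0% (33.1% to 41.0%). That was below the 54.7% (51.3% to 58.1%) at PCGF6 peaks with RING1B and above the 6.53% at H3K4me3 promoter peaks with neither protein. WDR5 was called at 42.9% (38.5% to 47.4%) of sites with H3K4me3 and at 9.90% (5.47% to 17.3%) of those without. It was called at 36.4% (30.4% to 42.9%) of sites with an E-box and at 37.4% (32.4% to 42.6%) of those without.

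USF1, unlike WDR5, was called at a larger share of these sites than of the peaks with RING1B. It overlapped 205 sites, 36.3% (32.4% to 40.3%), against 21.1% (18.5% to 24.03%) of PCGF6 peaks with RING1B and 14.3% of the H3K4me3 promoter peaks. Among sites with an E-box, 156 of 225 carried USF1, 69.3% (63.0% to 75.0%), and among those without, 49 of 340, 14.4% (11.1% to 18.5%). Both proteins were called at 92 sites. Brdt, Tef, Ccdc9 and Capn10 had USF1 peaks of 36.7, 49.5, 44.3 and 30.1 in fold enrichment within that list, and the E-box promoters of Boll, Bach2 and Sycp3 had none called.

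Few of these sites carried a PCGF6 peak in the cells with hairpins labelled shMGA, shMGAdHLH or shE2F6. No source here explains the label shMGAdHLH, so it is printed as given. In cells with the control hairpin, PCGF6 peaks were called at 530 of the 565 sites, 93.8% (91.5% to 95.5%). After shMGA, 3 sites carried one, 0.531% (0.181% to 1.55%), near Susd2 and at Zbtb40 and Ttll7. After shMGAdHLH 53 did, 9.38% (7.24% to 12.1%), after shE2F6 63, 11.2% (8.81% to 14.01%), and after the combined shE2F6-MGAdHLH 13, 2.30% (1.35% to 3.90%).

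The lists differed in length, with 7451 peaks for the control, 468 for shMGA, 733 for shMGAdHLH, 557 for shE2F6 and 355 for the combination, and each was 1 library. The 824 peaks with RING1B give the same lists on other sites: 0.607% carried a peak after shMGA, 19.4% (16.9% to 22.3%) after shMGAdHLH, 33.1% (30.0% to 36.4%) after shE2F6 and 5.22% after the combination. After shMGAdHLH and after shE2F6 the share was lower at the sites without wild-type RING1B, and after shMGA both sets were near 0. These intervals cover counting error only, and the difference between the sets was not tested. The wild-type peaks of the sites without RING1B were also lower, and the part of peak height in these values was not tested. The peaks that persisted in Pcgf6-/- cells were called at 68.1% after shMGA, 53.9% after shMGAdHLH, 31.5% after shE2F6 and 48.0% after the combination.

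Sites that kept a peak had higher wild-type peaks. Those kept after shE2F6 had a median wild-type fold enrichment of 8.91 and those not kept 7.40, and the medians for shMGAdHLH were 8.22 and 7.56. The 13 sites called after both shMGAdHLH and shE2F6 were all at promoters with H3K4me3, among them Capn10, Zbtb40, Gpat2 and Tef. The 13 called after shE2F6-MGAdHLH included Atxn7l3b, Tbpl1, Zbtb40 and Gtf2h1, chosen for naming after their values were seen. Mga's own promoter kept PCGF6 after shE2F6 and not after shMGA or shMGAdHLH. Among the germline promoters described here, that of Brdt kept a peak after shMGAdHLH only and that of Sycp3 after shE2F6 only. The Taf7l, Tex101, Tdrd9 and Boll promoters kept none after any of these 3 hairpins.

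The PCGF6 lists of the conditional line held 2222 peaks before and 1642 after deletion of Ring1b. In the Ring1a-/-_Ring1bfl line 241 sites carried a PCGF6 peak, 42.7% (38.6% to 46.8%), and in Ring1a/b-/- cells 153, 27.1% (23.6% to 30.9%). Of the 241, 123 were called after deletion, 51.0% (44.8% to 57.3%). At peaks with wild-type RING1B, PCGF6 was called at 61.2% (57.8% to 64.4%) before and 30.6% (27.5% to 33.8%) after deletion. Of those called before, 48.2% (43.9% to 52.6%) were called after. The difference between the sets was not tested. The peaks that persisted in Pcgf6-/- cells were called at 88.9% before and 90.0% after deletion. Among the Pcgf lines, PCGF6 was called at 489 sites in Pcgf1-/-, 545 in Pcgf2/4-/- and 219 in Pcgf3/5-/- cells, from lists of 5528, 12842 and 1571 peaks.

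**Figure D3:**
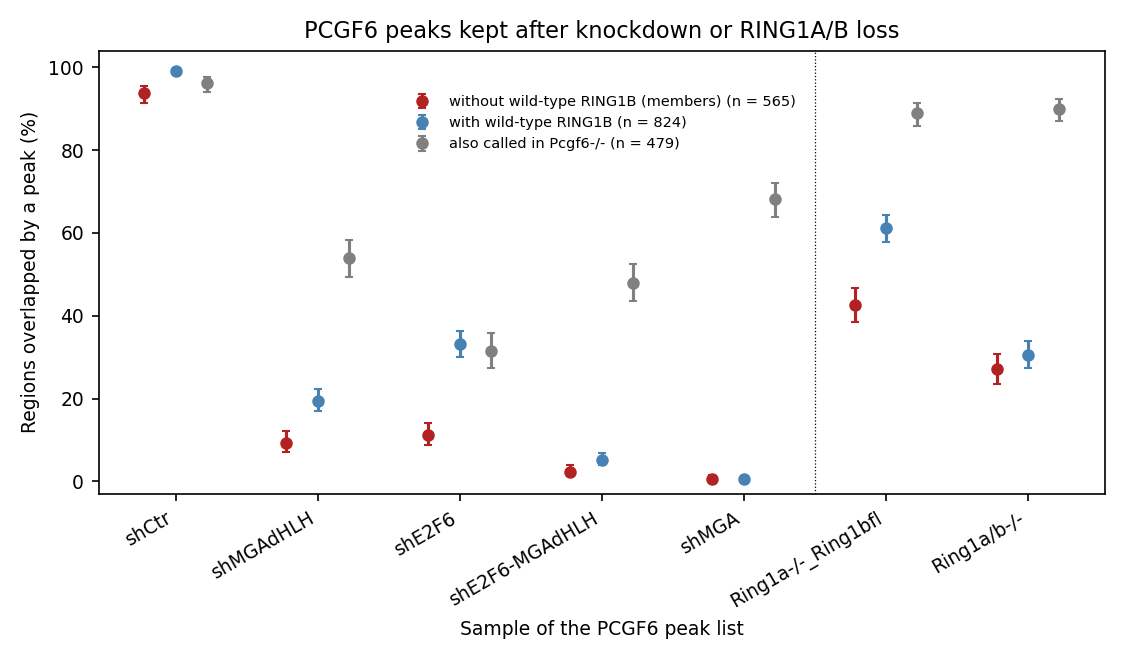
Share of regions (%, vertical axis) with a PCGF6 peak in each sample (horizontal axis), with 95% Wilson intervals, for the 565 sites, the 824 peaks with RING1B and the 479 that persist in Pcgf6-/- cells. The 565 sites go from 93.8% after the control hairpin to 0.531% after shMGA, and from 42.7% to 27.1% between the conditional line and Ring1a/b-/- cells.

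Expression was read at the 391 genes nearest the 392 promoter sites. The RNA libraries held between 2147968 and 7848161 counts. Pcgf6 itself had 36.2 and 34.3 CPM (counts scaled to the size of the library) in the wild-type libraries and 0 in both Pcgf6-/- libraries. The libraries labelled Pcgf3/5/6-/- had 42.0 and 37.2 CPM, so their label was not reflected in the gene's total count. The 2 wild-type libraries differed by less than sampling noise over 13931 genes, with a chi-square of 0.951 per degree of freedom. They are therefore given singly, without a mean, and the counts over all genes at these sites in Pcgf6-/- and Pcgf3/5/6-/- libraries are also given with the pair summed as 1 sample. No label says that paired libraries came from separate cultures, so p-values measure only the spread between these libraries. Fibroblast markers summed to 15.3 and 11.4 CPM in wild-type and 45.1 and 39.2 in Pcgf6-/- cells, with Dcn at 0. Of the 8, 5 were tested, and 4 of these were raised and none lowered. Primitive endoderm markers summed to 328 and 323 and to 539.6 and 547, with none at 0 in all 4 libraries. Of the 12, 9 were tested, and 5 of these were raised and none lowered. Pluripotency markers summed to 3443 and 3467 and to 2967 and 3143, and of 18 tested 3 were raised and 4 lowered. Over all genes tested 27.8% were raised and 18.6% lowered. None of the genes of these lists was nearest a promoter site of the 565, and the part of such cells in the expression results was not tested.

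The genes at these sites had a median level of 37.2 and 37.4 CPM in the wild-type libraries, against 4.99 and 4.50 at genes of PCGF6 peaks with RING1B, not corrected for gene length. Of the 371 tested, 118 were raised (31.8%) and 48 lowered (12.9%) in Pcgf6-/- cells by edgeR's quasi-likelihood test at an adjusted p below 0.05. Over all 15464 genes tested 27.8% were raised and 18.6% lowered. Beyond 2-fold, 62 were raised and 11 lowered, 16.7% and 2.96%, against 19.7% and 7.31% of all genes. The median log2 fold change was 0.12, against 0.03 over all genes and 0.72 over 480 genes at PCGF6 peaks with RING1B, of which 262 were raised and 49 lowered. With the wild-type pair summed as 1 sample, 93 were raised and 34 lowered, 24.8% and 9.07%, against 24.04% and 14.5% of all genes in that fit. With loess offsets 147 were raised and 56 lowered, 39.6% and 15.1%, against 26.8% and 23.6% of all genes. The 48 lowered became 30 without the first wild-type library, 29 without the first and 27 without the second Pcgf6-/- library, and 77 when only these 2 groups were fitted. Of the 20 genes not tested, none exceeded 1.87 CPM in these 4 libraries.

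These counts differed between subsets of the sites, and the differences were not tested. The shares below stand beside 27.8% raised and 18.6% lowered over all genes tested. Of the 19 tested genes whose site had no wild-type H3K4me3, 12 were raised (63.2%) and 2 lowered (10.5%), with a median log2 fold change of 1.51. Their median level was 1.93 and 1.76 CPM in wild-type and 11.8 and 10.4 CPM in Pcgf6-/- libraries. At sites with the mark 106 and 46 of 352 were raised and lowered (30.1% and 13.1%), with a median log2 fold change of 0.11. Of the 205 tested genes whose site carried RING1B in Pcgf2/4-/- cells, 81 were raised (39.5%) and 19 lowered (9.27%). Of 66 whose site carried RING1B in no list, 12 were raised (18.2%) and 11 lowered (16.7%). Among genes with an E-box site 37 were raised and 19 lowered of 134 (27.6% and 14.2%). Among those without, 81 and 29 of 237 were (34.2% and 12.2%).

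Germline genes were among the 12 raised genes taken by the naming rule, and Taf7l and Boll had the largest log2 fold changes. Taf7l, a germ cell paralogue of a TFIID subunit, rose from 6.99 and 4.50 CPM in the wild-type libraries to 92.1 and 99.9 in Pcgf6-/- (log2 fold change 4.06, SE 0.19, edgeR adjusted p 1.27e-09). Sycp3, a component of the synaptonemal complex of meiotic chromosomes, rose from 13.98 and 12.9 to 101 and 112 CPM (2.98, SE 0.17, edgeR adjusted p 6.86e-09). Tex101, which encodes a surface glycoprotein of male germ cells, rose from 14.6 and 15.8 to 113 and 118 CPM (2.93, SE 0.16, edgeR adjusted p 6.27e-09). The rule for naming these genes required that the groups not overlap. By the same test Sycp3 was also higher in Pcgf1-/- (1.41, SE 0.18) and Pcgf2/4-/- cells (1.73, SE 0.18). Tex101 was higher in Pcgf3/5-/- (1.10, SE 0.18) and Pcgf1/2/4-/- cells (1.90, SE 0.19). Taf7l was lower in Pcgf1-/- (-1.11, SE 0.29) and Pcgf1/2/4-/- cells (-1.23, SE 0.43). Taf7l and Tex101 were also among the promoters with an H3K4me3 peak in Pcgf6-/- but not in wild-type cells, and Sycp3 had a peak in both.

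Brdt rose from 9.42 and 9.28 to 76.6 and 78.4 CPM, with a log2 fold change of 3.05 and an SE of 0.15. Boll, an RNA-binding protein gene of the DAZ family, rose from 3.28 and 2.95 to 45.1 and 45.7 CPM, by 3.85 on the log2 scale with an SE of 0.20. Tdrd9, a helicase gene of the piRNA pathway, rose from 6.42 and 3.80 to 26.3 and 26.5 CPM, by 2.36 with an SE of 0.26. These 3 promoters carry an E-box in the stretches printed above. Brdt was also higher in Pcgf1-/- (0.77, SE 0.17) and Pcgf3/5-/- cells (0.96, SE 0.16), and Tdrd9 in Pcgf3/5-/- cells (0.98, SE 0.29). Of the 22 germline genes on the list fixed for this work, which share their choice with earlier results of these data, Taf7l, Sycp3 and Tex101 lay at sites without RING1B, 8 at PCGF6 peaks with RING1B and 7 at persisting peaks. Of the 20 tested, 19 were raised in Pcgf6-/- cells, beside 27.8% of all genes tested. That count covers the whole list, most of which lay at other peaks or at none.

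The other raised genes had no germline role in common. Tbc1d12, a gene of the TBC domain family, rose from 7.13 and 7.60 to 101 and 103 CPM. Gca, which encodes the calcium-binding protein grancalcin, rose from 16.0 and 14.3 to 158 and 164 CPM. Their log2 fold changes were 3.78 and 3.41 with SEs of 0.23 and 0.13. Trim52 and Trim68, of the tripartite motif family, and Fam26f rose by 3.17, 2.54 and 2.34 on the log2 scale. Trim52 was the one of the 12 that missed the threshold in the libraries labelled Pcgf3/5/6-/- (0.71, SE 0.40, edgeR adjusted p 0.151).

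Mga was the complex subunit among the lowered genes. It fell from 226 and 216 CPM in wild-type to 112 and 114 in Pcgf6-/- (log2 fold change -0.97, SE 0.12, edgeR adjusted p 1.43e-05) and had 90.0 and 88.9 CPM in the libraries labelled Pcgf3/5/6-/-. It was also lower in Pcgf1/2/4-/- cells, at 98.8 and 103 CPM (-1.13, SE 0.13, edgeR adjusted p 1.96e-05). Its promoter site, at chr2:119722900-119723622 over the gene's start, had a PCGF6 fold enrichment of 10.8. Tfdp1, the E2F partner gene, was the other subunit gene with a promoter site, at 132 and 141 CPM in wild-type and 123 and 129 in Pcgf6-/- libraries (-0.12, SE 0.11, edgeR adjusted p 0.447). Wdr5 had a site 12820 bp from its start, and its log2 fold change was -0.01 with an SE of 0.20.

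Among all 16 subunit genes, 3 were raised in Pcgf6-/- cells and 3 lowered, beside 27.8% and 18.6% of all genes tested, and 1 of those lowered was the deleted gene. Those lowered were Pcgf6, Mga and Ring1, at 6.56 and 8.44 CPM against 4.23 and 3.52. Those raised were Tfdp2 (0.58, SE 0.11), Yaf2 (0.77, SE 0.13) and E2f6 (0.64, SE 0.22), none of them nearest a site of the 565. The E2f6 call did not hold with the wild-type pair summed (edgeR adjusted p 0.0833) or without any 1 of the 4 wild-type and Pcgf6-/- libraries (0.0815 to 0.135). The Ring1 call did not hold without the second wild-type library (0.113) or the second Pcgf6-/- library (0.0835).

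The lowered gene with the largest change was Tef, a PAR bZIP transcription factor gene. It fell from 11.6 and 12.9 to 0.996 and 1.07 CPM (log2 fold change -3.54, SE 0.43, edgeR adjusted p 1.25e-05), while the libraries labelled Pcgf3/5/6-/- had 12.01 and 6.08 CPM, overlapping the wild type. Bach2, a BTB domain transcription factor gene, fell from 23.1 and 21.7 to 7.72 and 5.67 CPM and had 5.06 and 5.07 in Pcgf3/5/6-/-. In Pcgf1/2/4-/- cells Bach2 had 2.14 and 3.61 CPM (-2.92, SE 0.33, edgeR adjusted p 2.05e-05). Rac3, a small GTPase gene, fell from 31.0 and 32.2 to 11.5 and 9.50 CPM but stood at 52.5 and 52.0 in Pcgf3/5/6-/- libraries. Its neighbour Lrrc45 fell from 105 and 101 to 34.2 and 32.6 CPM, and was also lower in Pcgf1-/- cells (-1.41, SE 0.17). The direction of Rac3 thus differed between the lines, each against the same wild-type pair.

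The remaining 8 of the 12 lowered genes fell by 0.90 to 1.52 on the log2 scale: B930041F14Rik, a pseudogene in the annotation, Bod1l, Ccdc9, the neutral amino acid transporter gene Slc1a4, Ccdc114, Fam129a, Mga and the planar polarity cadherin gene Celsr1. Celsr1 went from 9.56 and 11.4 to 6.47 and 4.60 CPM, and its edgeR adjusted p was 0.0344, or 0.0653 with the wild-type pair summed. Without the first Pcgf6-/- library the calls of Ccdc9 (edgeR adjusted p 0.0521) and B930041F14Rik (0.0875) were lost, and without the second that of Celsr1 (0.192). The Celsr1 call was also lost without the first (0.0562) or the second (0.163) wild-type library by edgeR's adjusted p. Ccdc9 and Bod1l hold an E2F site in the printed stretches, and Bod1l's lies 2.5 bp from the summit. In Pcgf1-/- cells Slc1a4 (1.84, SE 0.12), Fam129a (1.07, SE 0.16) and Celsr1 (1.33, SE 0.27) were higher by the same test. Bod1l (-0.43, SE 0.11), Ccdc9 (-0.90, SE 0.30) and Ccdc114 (-0.86, SE 0.22) were lower there, and B930041F14Rik and Mga did not pass.

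**Figure D4:**
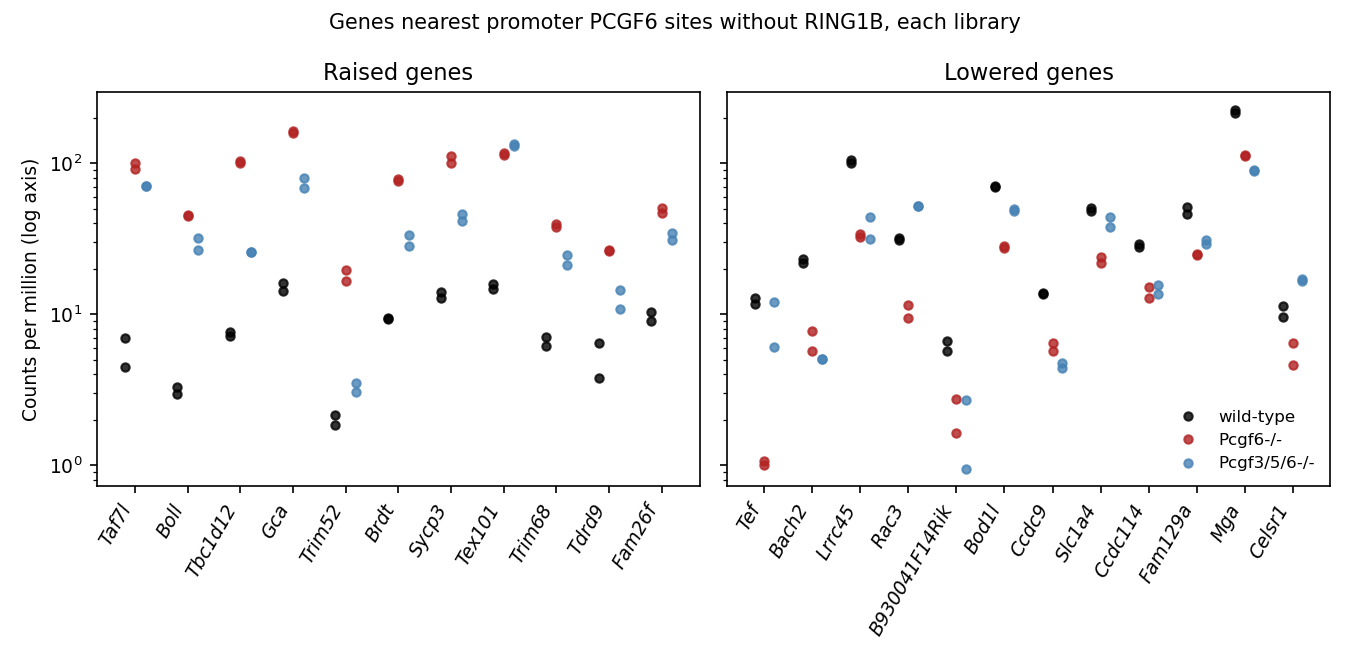
CPM, counts scaled to library size (log axis), in each library for 11 of the 12 raised and for the 12 lowered genes, with 2 points per genotype. All raised genes shown lie higher in Pcgf6-/- than in wild-type libraries, as the naming rule required, from Taf7l (6.99 and 4.50 against 92.1 and 99.9) to Fam26f. Rac3 and Celsr1 lie lower in Pcgf6-/- and higher in Pcgf3/5/6-/- libraries. In Pcgf3/5/6-/- Rac3 passed the test (log2 fold change 0.73, SE 0.15) and Celsr1 did not (0.70, SE 0.32, edgeR adjusted p 0.0784).

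Several of the most strongly bound promoters belonged to genes that did not pass the test. Trim28 stood at 176 and 182 CPM in wild-type and 196 and 197 in Pcgf6-/- libraries (log2 fold change 0.14, SE 0.12, edgeR adjusted p 0.405). Atxn7l3b (0.12, SE 0.12), Capn10 (0.08, SE 0.20) and Romo1 (0.07, SE 0.22) did not pass the test either. Among the strongest sites away from promoters, the nearest genes Slc7a8 and Gm1631 were higher, by 0.93 (SE 0.25) and 1.15 (SE 0.16), and Fgf9 and Gpr44 were too low to test. Of the remaining fixed lists, Paics of the nucleotide synthesis genes (-0.14, SE 0.29) and Rpl14 of the ribosomal proteins (-0.11, SE 0.32) had a promoter site and did not pass, and no cell cycle, pluripotency or developmental regulator gene had one.

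In the libraries labelled Pcgf3/5/6-/-, 96 of the 371 genes were raised and 82 lowered, 25.9% and 22.1%, against 28.0% and 25.3% of all genes, and the median was 0.06 against 0.05. With the wild-type pair summed the counts were 82 and 63, 21.9% and 16.8%, against 24.4% and 21.5% of all genes. The comparison shares the wild-type libraries with that of Pcgf6-/- cells. Other scalings moved the split: of the changed genes 53.9% were raised, or 60.7% with RLE size factors, 61.1% with DESeq2 and 62.0% with loess offsets. In Pcgf1-/- cells 44 were raised and 77 lowered, against 13.9% and 18.4% of all genes, in Pcgf2/4-/- 27 and 41 (8.10% and 13.5%), in Pcgf3/5-/- 45 and 27 (11.1% and 10.4%), and in Pcgf1/2/4-/- 55 and 102 (14.4% and 22.6%). Of 10416 tested genes with a wild-type H3K4me3 promoter peak and no PCGF6 peak, 18.6% were raised and 21.4% lowered in Pcgf6-/- cells, with a median log2 fold change of -0.05.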

How the data were processed

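The members, gene lists and comparisons were chosen with earlier results of these data known. Per the submitters' processing notes, ChIP-seq and RNA-seq reads were handled with Bowtie 1.2.2, MACS2 2.1.1, TopHat2 2.1.1 and HTSeq 0.7.2 on mm9; no source here states the role or settings of any tool. The deposited peak lists (41 used) hold, per peak, the fold enrichment ratio and the −log10 q-value given by the authors' caller; read depth is unknown for them, and histone ChIP had a fly chromatin spike-in, per the labels' protocols. Gene counts were deposited as raw whole-number counts by the authors. Overlaps needed 1 bp. Start sites came from GENCODE on NCBIM37, the same assembly as mm9; 21001 of 23377 symbols matched, and 1 peak passed a chromosome end. The nearest gene is an assignment by distance, and 52 promoter sites had a second gene within 2.5 kb.

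All 14 RNA libraries entered one edgeR 4.0.16 quasi-likelihood fit with TMM and a low-count filter (15464 genes), with Benjamini-Hochberg adjustment over all of them; DESeq2 1.42.0, RLE factors, no filter, 2-group fits, a replicate block and left-out libraries were alternatives. The fit was tested on data simulated with the same spread (dispersion 0.015) in every group. The real pairs differed in spread, with a chi-square per degree of freedom of 0.951 in wild-type, 1.91 in Pcgf6-/- and 21.3 in Pcgf2/4-/- libraries. The simulation does not cover such differences. Genes named were the 10 sites with the highest fold enrichment (ties by q), up to 12 raised and 12 lowered member genes with the largest change at adjusted p below 0.05, mean log2 CPM of at least 2 and libraries beyond both of the wild type, member genes on the fixed lists, and complex subunits. Some genes are not reported here.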

Additional observations from a re-analysis of the deposited data

How the results depend on the processing

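Of 126 recomputed counts, medians and shares, 98 stayed within 1.5 times the reported count or within the reported interval, and of 451 single-gene values 422 kept their direction and their side of the threshold; for the rest the cause was not tested. The median log2 fold change of the genes at these sites in Pcgf6-/- cells (0.12) became 0.16 with RLE size factors, 0.17 with DESeq2 and 0.19 with loess offsets. The median over all genes in the fit (0.03) became 0.06, 0.08 and 0.04 in the same order. With no filter the median at these sites was 0.11, against 0.02 over all genes. The 48 lowered genes became 77 with only the 2 groups compared, and 27 to 32 when 1 library was left out; without the first wild-type library 30, without the first Pcgf6-/- library 29 and without the second 27. The direction turned for 5 genes whose change was near 0 and passed no test: Rpl14 (0.00 with loess offsets), Cbx1 (0.07 with loess offsets), Wdr5 (0.02 with RLE size factors and with DESeq2, 0.09 with loess offsets), Rnf2 (0.01, 0.01 and 0.09 in the same order) and Hdac1. With 1 library left out, Wdr5 ranged from -0.08 to 0.05, Rnf2 from -0.11 to 0.06 and Hdac1 from -0.06 to 0.12.

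Replicate numbers gave no pairing: deviations from the group means correlated by 0.0332 between wild-type and Pcgf6-/- libraries of the same number and by 0.0131 for Pcgf3/5/6-/-. With the replicate block 113 genes were raised and 45 lowered in Pcgf6-/- and 90 and 78 in Pcgf3/5/6-/- libraries.

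The 565 sites were 136 when RING1B had to be absent from every line. A minimum −log10 q of 10 on the site, chosen after seeing the data because a minimum of 5 removed nothing, left 210 sites. Promoters were then 75.2% (65.1% of all sites with a 1 kb window), WDR5 50.5%, and PCGF6 was called at 97.6% after shCtr, 16.2% after shMGAdHLH, 22.9% after shE2F6, 4.76% after the combination, 59.0% in Ring1a-/-_Ring1bfl and 40.0% in Ring1a/b-/- cells. With the same minimum on the other list, also chosen after seeing the data, WDR5 was 14.9%, and PCGF6 was 87.3% after shCtr, 0 after shMGA, 3.19% after shMGAdHLH, 2.48% after shE2F6, 0.354% after the combination, 26.5% in Ring1a-/-_Ring1bfl and 16.99% in Ring1a/b-/- cells. With 50% of the site covered, H3K4me3 was 77.3% and USF1 32.0%. Loess offsets and the restriction to sites with a peak after the control hairpin were also added after seeing the data. The unknown depth of the peak lists limits any comparison of shares between them.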
